A study of Mus musculus with 8 samples.

Results

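Inward rectifier potassium channels were described here through 9 listed genes, Kcnj2, Kcnj3, Kcnj4, Kcnj6, Kcnj9, Kcnj10, Kcnj11, Kcnj12 and Kcnj16, out of 31417 genes in the deposited count table. The genes were chosen by name from a channel family, with earlier results of these data known. All 9 passed the filter on low counts that left 16511 genes for testing. Of 6 other inward rectifier genes, described below, 4 passed it. RNA was sequenced from the striatum, the input nucleus of the basal ganglia, of Dclk3 knockout mice (KO, n = 4) and of wild-type mice serving as their controls (WT, n = 4), all 12 months old. Each library came from a single striatum. The sources used here name neither the strain and sex of the mice nor which part of Dclk3 was deleted and in which cells. The labels do not say whether the 4 libraries of a genotype came from separate litters or cages, so the p-values measure the spread between these libraries.

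Inward rectifiers are tetrameric channels that pass potassium more readily into the cell than out of it, because intracellular polyamines and magnesium plug the pore on depolarization. In spiny projection neurons of the striatum, Kir2 channels hold the resting potential close to the potassium equilibrium potential. Kir3 channels (GIRK) open when G-protein beta-gamma subunits are released by Gi/o-coupled receptors, Kir4.1 and Kir5.1 carry potassium uptake in glia, and Kir6.2 forms the pore of ATP-sensitive channels together with a sulfonylurea receptor.

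Total counts per library were 24441242 to 34919463 in KO and 28776767 to 37145559 in WT, and the 9 genes held between 226 and 10727 counts in a library. Levels are CPM, counts scaled to the library total and then by the trimmed mean of M values (TMM), and fold changes are KO over WT. Dclk3 itself was at 19.6 to 27.7 CPM in KO and at 80.9 to 117 CPM in WT. Its log2 fold change was -2.06 (edgeR quasi-likelihood adjusted p = 0.000773, Benjamini-Hochberg). Dclk3 was the 1 gene called among 16511. Summed over 10 spiny neuron markers, the KO libraries held 3520 to 4040 CPM and the WT libraries 3590 to 4270 CPM. The first principal component set KO replicate 4 and WT replicate 4 furthest apart, at -23.5 and 30.0. The 4 choroid plexus markers summed to 48.5 to 236 CPM in the KO libraries, against 37.7 to 86.5 CPM in WT replicates 1 to 3 and 2860 CPM in WT replicate 4. KO replicate 4 held 465 CPM of 6 thalamic and subcortical glutamatergic markers, against 168 to 300 CPM in the other KO libraries and 165 to 274 CPM in WT. In bulk tissue, fewer cells of a type and less RNA per cell cannot be told apart.

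None of the 9 genes passed an adjusted p of 0.05 between KO and WT (edgeR quasi-likelihood test, Benjamini-Hochberg over 16511 genes), against 0.00606% of all genes tested. The adjusted p was 0.999 for every member. DESeq2, with 0.0102% of all genes called, and limma-voom, with 0.00606%, also called 0 of the 9. At an unadjusted p under 0.05 edgeR counted 1 member, Kcnj10, against 3.76% of all genes tested, and DESeq2 and limma-voom each counted 2, Kcnj10 and Kcnj4, against 2.21% of all genes by DESeq2 and 4.36% by limma-voom. Log2 fold changes ran from -0.22 for Kcnj6 to 0.19 for Kcnj10 with a median of 0.056, and 6 members lay above 0 and 3 below. Over all genes tested the median was -0.0011, with 8169 above 0 and 8342 below. The KO and WT ranges overlapped for all 9 members, while 1.93% of all genes tested had ranges that did not overlap. The widest 95% interval on the log2 scale, that of Kcnj6, reached from -0.63 to 0.18, and the narrowest, that of Kcnj4, from -0.24 to 0.0034.

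**Figure D1:**
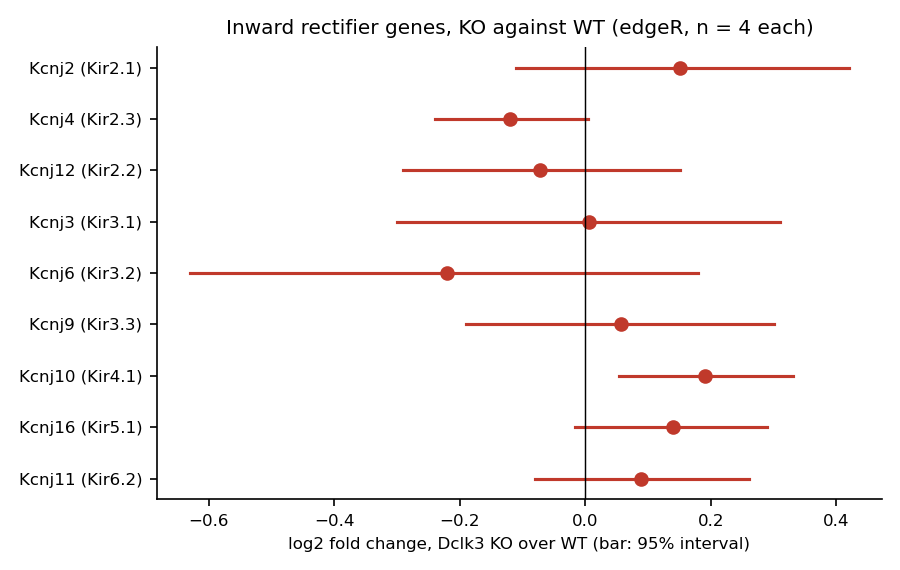
Log2 fold change of each inward rectifier gene, Dclk3 KO over WT, with its 95% interval from edgeR's quasi-likelihood fit (n = 4 libraries each). The interval of Kcnj10, from 0.054 to 0.33, lies above 0, those of the other 8 genes include 0, and no gene passed the adjusted threshold.

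The genes lie on 6 chromosomes of GRCm38 (mm10), and several have a relative or a partner next to them. Kcnj9 (chromosome 1, 172320501 to 172329318, minus strand) and Kcnj10 (172341210 to 172374085, plus strand) stand head to head with 11.9 kb between them. Kcnj16 (chromosome 11, 110968033 to 111027968) lies 38.2 kb before Kcnj2 (111066164 to 111076821), both on the plus strand. Kcnj11 (chromosome 7, 46093953 to 46100764, minus strand) lies 3.8 kb from Abcc8, the gene of its partner subunit SUR1. No other protein-coding gene is annotated between the members of each of these 3 pairs. Kcnj6 (chromosome 16, 94748636 to 94997701, minus strand), Kcnj3 (chromosome 2, 55435970 to 55598145, plus strand), Kcnj4 (chromosome 15, 79483714 to 79505241, minus strand) and Kcnj12 (chromosome 11, 61022564 to 61071131, plus strand) stand apart from the other members.

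The promoter windows of 3 of these genes are shown, chosen by their correlations across the libraries. Kcnj10 and Kcnj9 are neighbours with little correlation (r = 0.23), whereas Kcnj3 and Kcnj9, on different chromosomes, had r = 0.84. Kcnj9 with Kcnj11 was higher (r = 0.85), but no promoter window was available for Kcnj11. Whether the promoter letters bear on these correlations was not tested. Each window runs from 250 bases before to 50 after the RefSeq start (GRCm38.p6), printed in the direction of transcription. Capitals mark 3 kinds of promoter motif on either strand. They are the GC box with the letters GGGCGG, the box named CCAAT for its letters, and the TATA box, searched for with the letters TATAAA. No 2 of them overlap in these windows.
Kcnj10 (chr1:172340960-172341259, plus strand): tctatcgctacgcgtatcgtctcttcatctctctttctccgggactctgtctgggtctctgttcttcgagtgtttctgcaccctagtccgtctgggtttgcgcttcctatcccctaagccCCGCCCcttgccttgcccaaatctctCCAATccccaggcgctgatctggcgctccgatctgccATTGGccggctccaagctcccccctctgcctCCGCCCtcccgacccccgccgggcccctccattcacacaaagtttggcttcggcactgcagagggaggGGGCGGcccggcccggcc
Kcnj9 (chr1:172329273-172329572, minus strand): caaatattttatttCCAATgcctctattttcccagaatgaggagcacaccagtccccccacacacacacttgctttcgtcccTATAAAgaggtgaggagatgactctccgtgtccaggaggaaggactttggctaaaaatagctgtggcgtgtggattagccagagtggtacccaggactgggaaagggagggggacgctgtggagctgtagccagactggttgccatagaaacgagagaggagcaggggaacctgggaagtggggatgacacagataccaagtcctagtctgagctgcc
Kcnj3 (chr2:55435720-55436019, plus strand): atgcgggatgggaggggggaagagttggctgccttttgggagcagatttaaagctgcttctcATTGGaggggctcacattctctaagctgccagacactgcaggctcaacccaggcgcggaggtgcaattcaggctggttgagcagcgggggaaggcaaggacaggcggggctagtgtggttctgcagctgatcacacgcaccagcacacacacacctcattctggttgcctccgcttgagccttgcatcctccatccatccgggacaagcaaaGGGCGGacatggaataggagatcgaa

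The window of Kcnj10 held 3 GC boxes, 2 CCAAT boxes and 21 CpG dinucleotides at 63.7% G+C. That of Kcnj9 held no GC box, 1 CCAAT box, 1 TATA box that begins 168 bases before the start, and 5 CpG dinucleotides at 52.3% G+C. That of Kcnj3 held 1 GC box, 1 CCAAT box and 10 CpG dinucleotides at 57.7% G+C. Of 32851 mouse windows of the same length 35.7% held a GC box, 37.4% a CCAAT box and 13.6% a TATA box, and the median was 52.7% G+C with 7 CpG dinucleotides. The highest G+C content among the members was in the window of Kcnj4, at 76.0% with 41 CpG dinucleotides and 4 GC boxes, 2 of which adjoin. These matches are descriptions of the letters and not of bound sites.

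Compared per length of annotated exons, the 9 genes spanned a wide range of levels, and their order was the same in each library apart from Kcnj2 and Kcnj16. Kcnj4 was highest, at 68.8 ± 2.96 CPM per kb in KO and 74.7 ± 3.1 CPM per kb in WT (SD, n = 4 each), above 97.2% of the 16478 tested genes with an annotated length. Kcnj10 followed at 55.9 ± 2.91 CPM per kb in KO and 48.9 ± 3.08 CPM per kb in WT, then Kcnj9 at 30.4 ± 2.52 and 29.3 ± 5.04 CPM per kb in KO and WT (SD, n = 4 each). The ranges of these 3 genes over the 8 libraries did not overlap. Kcnj3, at 17.3 CPM per kb in KO and 17.2 CPM per kb in WT, and Kcnj11, at 14.5 CPM per kb in KO and 13.7 CPM per kb in WT, overlapped in range, although Kcnj3 was above Kcnj11 in 8 of 8 libraries. With the length of the longest transcript in place of all exons, it was above in 5 of 8.

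Kcnj2 and Kcnj16 were not separated. Kcnj2 was at 9.07 CPM per kb in KO and 8.17 CPM per kb in WT, Kcnj16 at 8.54 CPM per kb in KO and 7.76 CPM per kb in WT, and Kcnj2 was above Kcnj16 in 4 of 8 libraries. Kcnj12 (4.27 CPM per kb in KO, 4.49 CPM per kb in WT) and Kcnj6 (1.47 CPM per kb in KO, 1.72 CPM per kb in WT) closed the order. The exons of Kcnj6 join to 7.63 kb while its longest annotated transcript has 3.63 kb, and with the shorter length its level was 3.1 CPM per kb in KO and 3.61 CPM per kb in WT. It was still below Kcnj12 in 8 of 8 libraries with that length, but the ranges of the 2 genes then overlapped.

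**Figure D2:**
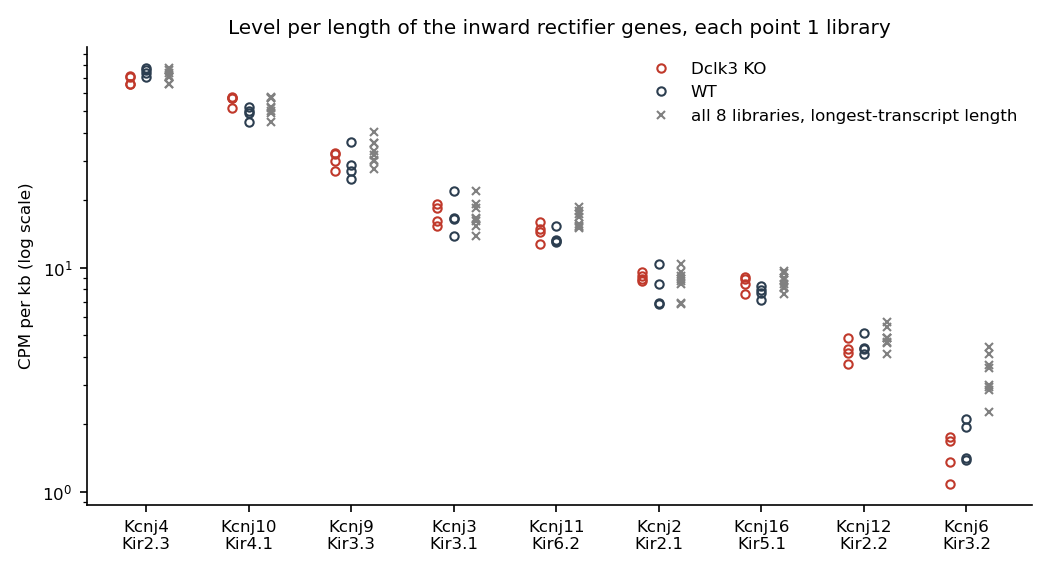
CPM per kb of annotated exons on a log scale for the 9 genes in each KO and WT library, with crosses for the same libraries at the length of the longest transcript. Kcnj4, Kcnj10 and Kcnj9 lead the order, at 24.9 to 78.0 CPM per kb over the 8 libraries, and Kcnj6 is lowest at 1.08 to 2.11 CPM per kb.

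Kcnj4 (ENSMUSG00000044216) encodes Kir2.3, a constitutively active strong rectifier of forebrain neurons. It was at 142, 153, 154 and 143 CPM in KO replicates 1 to 4, against 168, 160, 163 and 152 CPM in WT replicates 1 to 4. KO replicates 1 and 4 were below all WT libraries, and KO replicates 2 and 3 lay just above WT replicate 4. The means were 148 ± 6.38 CPM in KO and 161 ± 6.67 CPM in WT (SD, n = 4 each), with KO over WT at -0.12 on the log2 scale (95% interval -0.24 to 0.0034, unadjusted p = 0.0558, adjusted p = 0.999, edgeR quasi-likelihood). It was the steadiest member, with a coefficient of variation of 5.88% over all 8 libraries.

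Kcnj2 (ENSMUSG00000041695) encodes Kir2.1, the Kir2 subunit best known from muscle and heart and also present in spiny neurons. Its level was 49.8, 48.4, 51.8 and 47.5 CPM in KO replicates 1 to 4, against 56.7, 37.8, 37.5 and 45.9 CPM in WT replicates 1 to 4. The KO libraries lay close together, inside the span of the WT libraries. Means were 49.4 ± 1.88 CPM in KO and 44.5 ± 9.06 CPM in WT (SD, n = 4 each), and the log2 fold change was 0.15 (95% interval -0.11 to 0.42, adjusted p = 0.999, edgeR quasi-likelihood). It was 0.29 without WT replicate 1, the highest library, 0.081 without WT replicate 2 and 0.079 without WT replicate 3.

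Kcnj12 (ENSMUSG00000042529) encodes Kir2.2, which assembles with the other Kir2 subunits. It was at 12.0, 10.2, 11.5 and 13.3 CPM in KO replicates 1 to 4, against 11.9, 14.1, 11.3 and 12.0 CPM in WT replicates 1 to 4. KO replicate 2 was below all WT libraries and WT replicate 2 above all KO libraries, with the other libraries inside the shared range. Its means were 11.7 ± 1.30 CPM in KO and 12.3 ± 1.23 CPM in WT (SD, n = 4 each), and the log2 fold change was -0.073 (95% interval -0.29 to 0.15, adjusted p = 0.999, edgeR quasi-likelihood). That value was -0.0015 without WT replicate 2, -0.010 without KO replicate 2, -0.11 without WT replicate 3 and -0.14 without KO replicate 4. Within a library, Kcnj4 made up 83.7% ± 0.932 of the summed Kir2 level per kb in KO and 85.5% ± 1.45 in WT, Kcnj2 11% ± 0.372 in KO and 9.33% ± 1.62 in WT, and Kcnj12 5.21% ± 0.715 in KO and 5.15% ± 0.593 in WT (SD, n = 4 each). The ranges of all 3 shares overlapped between the genotypes.

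**Figure D3:**
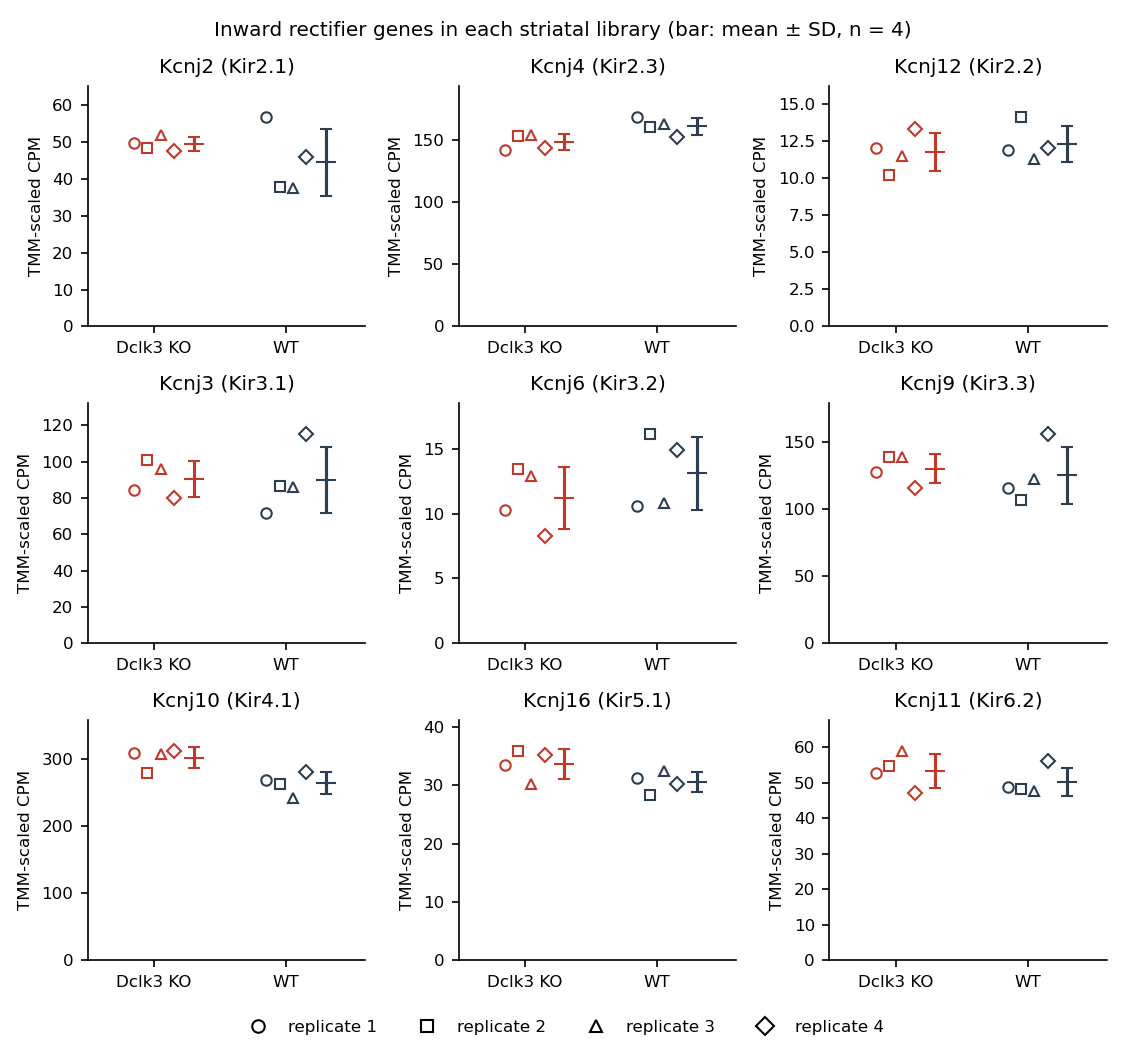
TMM-scaled CPM of the 9 inward rectifier genes in each library, KO left of WT, with a marker shape for each replicate number and the mean ± SD (n = 4) beside the points. The groups overlap in all 9 panels, and 3 of 4 KO libraries lie above all WT libraries for Kcnj10 and for Kcnj16.

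For the 3 genes of neuronal Kir3 channels the KO and WT libraries were interleaved. Kcnj9 (ENSMUSG00000038026) encodes Kir3.3, a subunit that works in heteromers and directs them to endosomes and lysosomes. It was at 128, 139, 139 and 116 CPM in KO replicates 1 to 4, against 116, 107, 123 and 156 CPM in WT replicates 1 to 4. WT replicate 4 was the highest library, and the other 3 WT libraries lay at or below the middle of the KO range. Means were 130 ± 10.8 CPM in KO and 125 ± 21.6 CPM in WT (SD, n = 4 each), and the log2 fold change was 0.056 (95% interval -0.19 to 0.30, adjusted p = 0.999, edgeR quasi-likelihood). It was -0.014 without WT replicate 2, 0.019 without WT replicate 1, 0.025 without KO replicate 2 or 3 and 0.11 without KO replicate 4. Without WT replicate 4 it was 0.18 (adjusted p = 0.708), and without replicate 4 of both genotypes 0.23 (unadjusted p = 0.00673, adjusted p = 0.353). The last setting was chosen after seeing the data. In it, 8.22% of all genes tested and 4 of the 9 members had an unadjusted p under 0.05.

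Kcnj3 (ENSMUSG00000026824) encodes Kir3.1, which needs another Kir3 subunit to reach the membrane as a working channel. It was at 84.4, 101, 96.1 and 79.8 CPM in KO replicates 1 to 4, against 71.7, 86.7, 85.9 and 115 CPM in WT replicates 1 to 4, so that both the lowest and the highest library were WT. Means were 90.3 ± 9.87 CPM in KO and 89.9 ± 18.2 CPM in WT (SD, n = 4 each), with a log2 fold change of 0.0064 (95% interval -0.30 to 0.31, adjusted p = 0.999, edgeR quasi-likelihood). Its sign turned when any of 5 libraries was left out, KO replicate 2 or 3 or WT replicate 1, 2 or 3. The values were then between -0.087 and -0.011. Without WT replicate 4 the value was 0.15. Without replicate 4 of both genotypes, chosen after seeing the data, it was 0.20 (unadjusted p = 0.0406, adjusted p = 0.582, edgeR quasi-likelihood).

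Kcnj6 (ENSMUSG00000043301) encodes Kir3.2, the subunit that can form channels on its own and is the main Kir3 subunit of midbrain dopamine neurons. It had 10.3, 13.4, 12.9 and 8.25 CPM in KO replicates 1 to 4, against 10.6, 16.1, 10.8 and 14.9 CPM in WT replicates 1 to 4. KO replicates 1 and 4 lay below all WT libraries, and replicates 2 and 3 inside the WT range. Its means were 11.2 ± 2.40 CPM in KO and 13.1 ± 2.80 CPM in WT (SD, n = 4 each). With a log2 fold change of -0.22 (95% interval -0.63 to 0.18, unadjusted p = 0.251, adjusted p = 0.999, edgeR quasi-likelihood) it had the largest change in size among the members and also the widest interval. With 1 library left out the value ran from -0.32 without KO replicate 2 to -0.10 without KO replicate 4, and it was -0.11 without WT replicate 2. Without replicate 4 of both genotypes it was -0.035, and limma-voom gave -0.091.

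The Kir3 shares overlapped between the genotypes, and the Kcnj6 share varied most for its size, from 2.49% in KO replicate 4 to 4.84% in WT replicate 2. Of the summed Kir3 level per kb, Kcnj9 made up 61.9% ± 1.07 in KO and 60.8% ± 2.91 in WT, Kcnj3 35.2% ± 0.854 in KO and 35.7% ± 2.29 in WT, and Kcnj6 2.96% ± 0.370 in KO and 3.60% ± 0.832 in WT (SD, n = 4 each). The Kcnj6 share was 5.66% in KO and 6.83% in WT when the longest transcript set the length. The summed Kir3 level was 0.598 ± 0.0400 of the summed Kir2 level in KO and 0.555 ± 0.118 of it in WT, with overlapping ranges. Kcnj3 and Kcnj9 each overlap an antisense gene. The one over Kcnj3, Gm26794, was at 2.64 to 3.81 CPM in KO and 2.36 to 3.24 CPM in WT, and the one over Kcnj9, Gm36937, had at most 2 counts in a KO library and 7 in a WT library. Kcnj6 overlaps Gm41505 on the opposite strand. No source used here says whether reads were counted by strand, so reads of these pairs cannot be told apart.

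Genes around Kir3 signalling also gave no call. Among the 20 receptors listed as coupled to Kir3 channels 19 were tested, with 7 genes above 0, 12 below and a median of -0.063 on the log2 scale. Drd2, the dopamine receptor of indirect-pathway spiny neurons, was at 163 CPM in KO and 160 CPM in WT on average. The 3 receptors with the smallest p were somatostatin receptors, Sstr1 at -0.36 (8.35 ± 0.530 CPM in KO, 10.7 ± 2.02 CPM in WT), Sstr2 at -0.39 (23.4 ± 5.87 CPM in KO, 30.8 ± 3.76 CPM in WT) and Sstr4 at -0.24 (SD, n = 4 each). Unadjusted p was 0.019, 0.0466 and 0.172 for these 3 receptors, and the adjusted p was 0.999 for each (edgeR quasi-likelihood).

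The 5 Gi/o alpha subunits had a median of -0.021, with Gnaz at -0.12, Gnai3 at -0.094 and Gnao1, the abundant Go alpha subunit, at 0.042. Of 13 beta and gamma subunits 12 were tested, with a median of 0.025 and 8 above 0. Gng13 had -0.31, Gng4 -0.15 and Gng12 0.053. The 12 regulators of Kir3 signalling had a median of 0.0090 with 6 on each side, and among them Rgs6, which speeds G-protein shut-off, had 0.16, Rgs2 -0.14 and Rgs4 0.12. In each of these 4 lists 0 genes were called in either direction (edgeR quasi-likelihood, lowest adjusted p 0.999), and 0 genes had ranges free of overlap. At an unadjusted p under 0.05 the counts were 2 receptors, 1 regulator and 0 subunits, against 3.76% of all genes tested.

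Kcnj10 (ENSMUSG00000044708) encodes Kir4.1, the main potassium channel of astrocytes, which is also present in oligodendrocytes and clears potassium released by active neurons. It was at 310, 279, 308 and 312 CPM in KO replicates 1 to 4, against 270, 264, 242 and 281 CPM in WT replicates 1 to 4. KO replicates 1, 3 and 4 were above all WT libraries, and KO replicate 2 lay just under WT replicate 4. The means were 302 ± 15.8 CPM in KO and 264 ± 16.6 CPM in WT (SD, n = 4 each). KO over WT gave 0.19 on the log2 scale (SE 0.064, with a 95% interval of 0.054 to 0.33), with an unadjusted p of 0.0105, the 79th smallest of 16511, and an adjusted p of 0.999 (edgeR quasi-likelihood). It did not pass the threshold. Over 17 alternative settings it stayed between 0.15 and 0.23, with adjusted p values of 0.419 to 1.

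Kcnj16 (ENSMUSG00000051497) encodes Kir5.1, which is silent alone and joins Kir4.1 in pH-sensitive heteromers. It had 33.4, 35.8, 30.2 and 35.1 CPM in KO replicates 1 to 4, against 31.2, 28.3, 32.5 and 30.2 CPM in WT replicates 1 to 4. KO replicates 1, 2 and 4 were above all WT libraries and replicate 3 was inside their range. Its means were 33.6 ± 2.52 CPM in KO and 30.5 ± 1.77 CPM in WT (SD, n = 4 each), at a log2 fold change of 0.14 (95% interval -0.017 to 0.29, unadjusted p = 0.0763, adjusted p = 0.999, edgeR quasi-likelihood). Per kb, Kcnj10 exceeded Kcnj16 by 6.59 ± 0.738 times in KO and 6.32 ± 0.642 times in WT (SD, n = 4 each), with library values from 5.42 to 7.44 that overlapped between the genotypes.

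Astrocyte markers were mostly above 0 as well. The median over 10 astrocyte markers was 0.15 on the log2 scale, and 8 of them were above 0. Of the 10 markers 0 were called (lowest adjusted p 0.999, edgeR quasi-likelihood). An unadjusted p under 0.05 was found for 5, against 3.76% of all genes tested. For 2 of them, Gjb6 and Aldh1l1, all KO libraries were above all WT libraries, as in 1.07% of all genes tested. The 2 markers below 0 were Gfap at -0.21 and Sox9 at -0.033. All 10 astrocyte markers summed to 6210 to 6750 CPM in KO and 5600 to 6230 CPM in WT. Most of that sum was Slc1a2, with means of 4400 CPM in KO and 4150 CPM in WT and a log2 fold change of 0.083. The 8 oligodendrocyte markers were all above 0 with a median of 0.19, and summed to 9070 to 10800 CPM in KO and 7450 to 10200 CPM in WT. The 6 endothelial markers, 5 of them above 0, summed to 241 to 298 CPM in KO and 194 to 269 CPM in WT. All 6 microglia markers, 5 of 6 mural markers and all 6 thalamic and subcortical glutamatergic markers were also above 0. The thalamic and subcortical sums overlapped, at 168 to 465 CPM in KO and 165 to 274 CPM in WT. At an unadjusted p under 0.05 edgeR counted 2 oligodendrocyte, 2 mural and 1 endothelial marker. It counted 0 microglia and 0 thalamic and subcortical markers, against 3.76% of all genes tested. All 5 cortical glutamatergic, 4 choroid plexus and 4 ependymal markers were below 0. The choroid plexus sum was 2860 CPM in WT replicate 4, against 37.7 to 86.5 CPM in WT replicates 1 to 3. In KO it was 48.5 to 236 CPM, so the values below 0 rested on WT replicate 4. The part of these cell types in the Kcnj10 and Kcnj16 values was not tested.

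Proteins that sit with Kir4.1 at astrocyte end-feet were at a median of 0.082 on the log2 scale, with 6 of 8 genes above 0. Of the 8 genes 0 were called (edgeR quasi-likelihood, lowest adjusted p 0.999). An unadjusted p under 0.05 was found for 1, against 3.76% of all genes tested. Of the 8 genes 1 had all KO libraries above all WT libraries, against 1.07% of all genes tested. Mlc1 had 0.12 and Hepacam 0.13. The water channel gene Aqp4, named after its values were seen, had 0.094.

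Among 13450 protein-coding genes with a mean of at least 1 CPM, Col6a4 had the levels most like those of Kcnj10 over the 8 libraries, with Pearson's r = 0.96 on the log2 scale (Spearman's rho 0.95). Without the 2 libraries furthest from the median of Kcnj10, r was 0.97. Kcnj9, the neighbour of Kcnj10, had r = 0.23 with it. Such values describe 8 libraries that differ in depth and in markers of neighbouring tissue, and they are the top of a long list.

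Kcnj11 (ENSMUSG00000096146) encodes Kir6.2, the pore of the ATP-sensitive channel that couples membrane potential to metabolism. It was at 52.8, 54.6, 58.8 and 47.2 CPM in KO replicates 1 to 4, against 48.9, 48.1, 47.7 and 56.1 CPM in WT replicates 1 to 4. KO replicate 4 was the lowest library, while KO replicate 3 was above all WT libraries. Its means were 53.3 ± 4.83 CPM in KO and 50.2 ± 3.97 CPM in WT (SD, n = 4 each), and KO over WT was 0.088 on the log2 scale (95% interval -0.080 to 0.26, adjusted p = 0.999, edgeR quasi-likelihood). It was 0.037 without KO replicate 3, 0.14 without KO replicate 4 and 0.15 without WT replicate 4. Without replicate 4 of both genotypes, chosen after seeing the data, it was 0.20 (unadjusted p = 0.011, adjusted p = 0.406, edgeR quasi-likelihood). In that setting 8.22% of all genes tested had an unadjusted p under 0.05.

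Its partner Abcc8, the SUR1 subunit, was at 26.8, 29.9, 35.7 and 25.9 CPM in KO replicates 1 to 4, against 23.1, 20.7, 26.3 and 34.3 CPM in WT replicates 1 to 4, a log2 fold change of 0.18 (adjusted p = 0.999, edgeR quasi-likelihood). Per kb of exons Abcc8 was at 0.251 ± 0.0188 of Kcnj11 in KO and 0.235 ± 0.0368 of it in WT (SD, n = 4 each). The vascular form of the channel was at lower levels. Kcnj8 (Kir6.1) was at 4.43 to 5.90 CPM in KO and 4.35 to 5.56 CPM in WT, and Abcc9 (SUR2) at 13.5 to 18.4 CPM in KO and 9.07 to 16.1 CPM in WT, with log2 fold changes of -0.018 and 0.28. The 6 markers of mural cells, in which both genes are known to be active, summed to 304 to 334 CPM in KO and 264 to 318 CPM in WT.

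The remaining Kir genes were low. Kcnj5 (Kir3.4, the cardiac partner of Kir3.1) averaged 2.19 ± 0.302 CPM in KO and 2.13 ± 0.490 CPM in WT, and Kcnj14 (Kir2.4) averaged 1.30 ± 0.379 CPM in KO and 1.24 ± 0.436 CPM in WT (SD, n = 4 each). Kcnj1 (Kir1.1, the renal channel) had 0 to 1 count in KO libraries and 0 to 2 in WT libraries, and Kcnj15 (Kir4.2) 0 to 2 counts in KO libraries and 0 to 4 in WT libraries. A floor of 3 counts corresponds to 0.0808 to 0.123 CPM, counting error only, and neither gene was tested.

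Kcnj13 encodes Kir7.1, a channel of choroid plexus epithelium. It was at 1.76, 0.574, 1.12 and 0.547 CPM in KO replicates 1 to 4, against 0.612, 0.898, 0.443 and 18.0 CPM in WT replicates 1 to 4. The high library was WT replicate 4, which also held the 2860 CPM of choroid plexus markers. Kcnj13 overlaps Gigyf2 on the opposite strand. Its log2 fold change of -2.34 (95% interval -5.77 to 1.09, adjusted p = 0.999, edgeR quasi-likelihood) turned to 0.59 without that library. Choroid plexus in the dissection as a source of this difference was not tested beyond these values.

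Partners and other potassium channels gave no call either. The 10 PDZ-domain and scaffold genes that anchor Kir2 channels had a median log2 fold change of 0.017, with Lin7b at -0.20, Dlg2 at 0.062 and Dlg4, the postsynaptic scaffold PSD-95, at 0.048. Genes that make or break down PIP2, the membrane lipid that all Kir channels need to stay open, had a median of -0.024 over 8 genes. Plcb4 was at 0.30, Pi4ka at -0.10 and Pip5k1a at -0.10, and the KO libraries of Pip5k1a (80.4 ± 2.16 CPM) were all below the WT libraries (86.0 ± 2.67 CPM; SD, n = 4 each), as in 0.86% of all genes tested.

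Median log2 fold changes were -0.025 over 8 HCN and KCNQ channel genes, where Hcn2 had 0.13, Hcn3 -0.16 and Kcnq5 -0.049, and -0.0050 over 10 A-type channel genes and partners, where Kcnip3 had -0.17, Kcnip2 0.12 and Kcnip1 0.17. The 8 two-pore channel genes had a median of 0.023, with Kcnk12 at -0.33, Kcnk9 at -0.26 and Kcnk1 at 0.072. In these 5 lists 0 genes were called (edgeR quasi-likelihood, lowest adjusted p 0.999), against 0.00606% of all genes tested. An unadjusted p under 0.05 was found for 0 of their genes, against 3.76% of all genes tested. The difference between these lists and the inward rectifiers was not tested.

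Across the 8 libraries the members did not vary as a block. Over the 36 pairs of members, Pearson's r of log2 CPM was above 0.8 for Kcnj9 with Kcnj11 (r = 0.85, rho = 0.79) and Kcnj3 with Kcnj9 (r = 0.84, rho = 0.71), and below -0.8 for Kcnj4 with Kcnj10 (r = -0.81, rho = -0.83). Without the 2 libraries furthest from the median of the first gene, r was 0.91, 0.72 and -0.86 for these pairs. These values pool KO and WT libraries with no term for genotype. Kcnj4 and Kcnj10 differed between the genotypes with opposite signs, at log2 fold changes of -0.12 and 0.19. The part of genotype in their r was not tested. For Kcnj3 the gene Kcnj9 stood 206th of 13450 by r, so that many other genes were more like it. Kcnj6 with Kcnj3 had r = 0.65, Kcnj10 with Kcnj16 r = 0.27, and the neighbours Kcnj16 and Kcnj2 r = 0.26.

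Kcnj6 had the strongest correlations among 126 relations of 9 members with 14 marker lists. Its r with the marker score was -0.91 for oligodendrocytes (rho = -0.95, -0.83 without 2 libraries), -0.91 for microglia (rho = -0.86, -0.82) and 0.83 for cortical glutamatergic neurons (rho = 0.74, 0.50). The 5 cortical markers summed to 654 to 1090 CPM in KO and 887 to 1320 CPM in WT, and the lowest library for both the markers and Kcnj6 was KO replicate 4. Kcnj10 had r = 0.81 with endothelial markers (rho = 0.83, 0.48 without 2 libraries) and 0.70 with astrocyte markers (rho = 0.60, 0.66). Kcnj4 had r = -0.77 with endothelial markers (rho = -0.86, -0.67). The part of these cell types in the members' values was not tested.

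**Figure D4:**
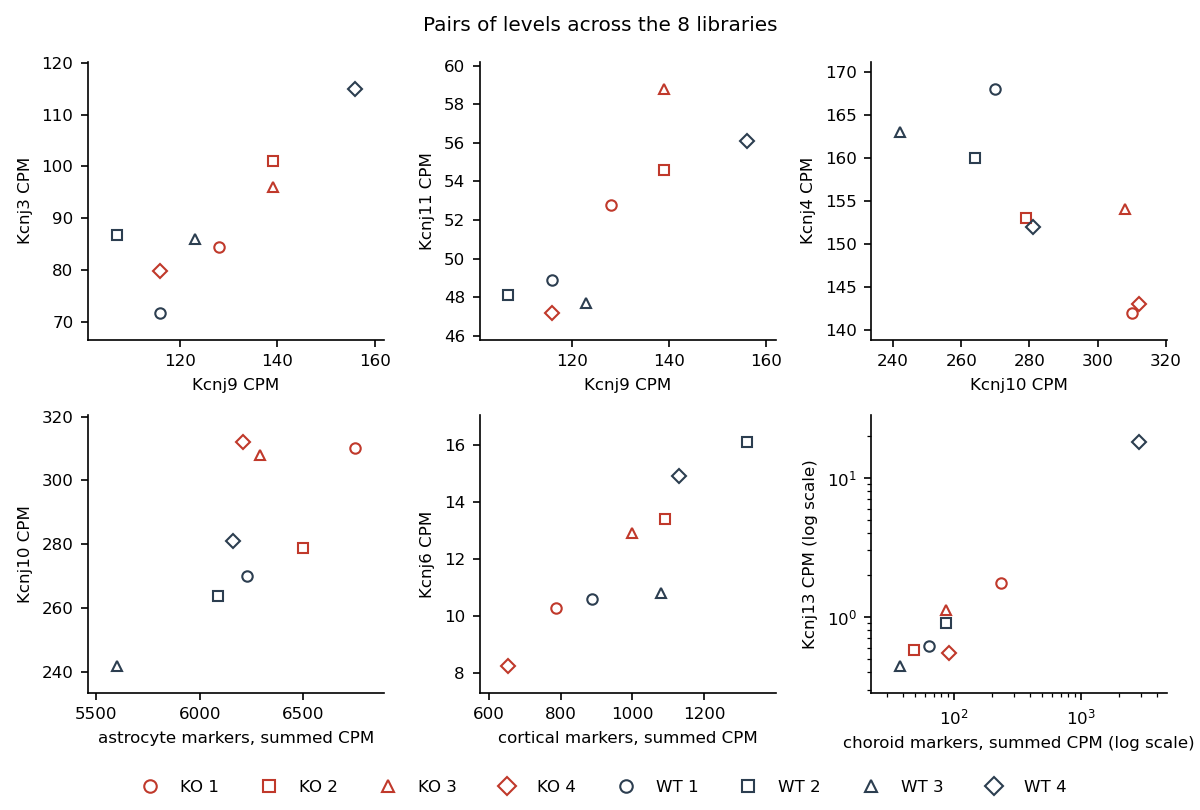
CPM of 6 pairs of genes or summed marker lists in the 8 libraries, KO and WT by colour and replicate by shape, with log axes for Kcnj13 against choroid plexus markers only. WT replicate 4 is highest for both Kcnj3 and Kcnj9 and stands apart at 18.0 CPM of Kcnj13. Kcnj10 runs against Kcnj4 with KO and WT libraries pooled.

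The genes with levels most like the other members had r between 0.94 and 0.99 over the 8 libraries, each the top 2 of 13450 protein-coding genes. They were Pabpc5 and Etv6 for Kcnj2, Oxr1 and Fam160a1 for Kcnj3, Dnal1 and Ppp1r37 for Kcnj4, and Zfp451 and Nptx1 for Kcnj6. For Kcnj9 they were Ptprk and Uap1, for Kcnj11 Fbxw7 and Nnt, for Kcnj12 Dut and Ppm1g, and for Kcnj16 Zfp449 and Apbb1ip. The closest single relations were Oxr1 with Kcnj3 (r = 0.99, rho = 0.90, and 0.97 without 2 libraries) and Ptprk with Kcnj9 (r = 0.99, rho = 1, and 0.98 without 2 libraries). The weakest on leaving out 2 libraries was Etv6 with Kcnj2, at 0.73. All of these pairs were picked by r in the same 8 libraries, so the values without 2 libraries are no separate test.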

How the data were processed

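The values used are whole-number counts per Ensembl gene that the authors deposited in 1 table, in columns marked raw per the file headers. Per the labels' protocols, poly(A) RNA from 1000 ng of total RNA went into stranded dUTP libraries with 12 PCR cycles, and no molecular identifiers are mentioned. Per the submitters' processing notes, base calls came from bcl2fastq 2.17.1.14 and the build was mm10. The sources used here name no aligner, counting tool or strand setting.

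Symbols and exon lengths came from GENCODE M21 (GRCm38), matching 31292 of 31417 identifiers, and promoter windows from RefSeq (GRCm38.p6), which held 8 of the 9 genes. Genes were filtered with filterByExpr (minimum count 10), scaled by TMM and fitted in edgeR 4.0.16 (R 4.3.3) by robust quasi-likelihood with genotype as the only term. The Benjamini-Hochberg adjustment of the two-sided p-values ran over 16511 genes, threshold 0.05. Intervals came from the quasi-likelihood statistic, and log2 CPM used a prior count of 2. The script was tested on simulated data. Chi-square per degree of freedom was 6.6 to 29.6 between libraries of 1 genotype, so none was a copy. Alternatives used DESeq2 1.42.0, limma 3.58.1, other scalings and filters, the replicate number as a block, libraries left out, and transcript length.

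The members and gene lists were chosen with earlier results of these data known. Named genes are the 9 members, Dclk3, up to 3 genes of smallest p per list and the 2 genes most like each member. Members of a cell type marker list set beside a result could also be named. A named-gene result that this rule would give is not reported here.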

Additional observations from a re-analysis of the deposited data

Results flagged for a closer look

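Of 40 groups of 4 libraries checked for a library far from the other 3 (Dixon's test at its 95% critical value), 3 were picked out, and chance picks out about 1 in 20 groups. Kcnj10 in KO replicate 2 was at 279 CPM, against 308 to 312 CPM in the other KO libraries. It is the KO library that overlaps the WT range. Kcnj11 in WT replicate 4 was at 56.1 CPM, against 47.7 to 48.9 CPM in the other WT libraries. WT replicate 4 was also the highest library for Kcnj3 and Kcnj9. The share of Kcnj6 in the summed Kir3 level was 4.84% in WT replicate 2, against 3.04% to 3.3% in the other WT libraries, and that library also had the highest summed cortical markers, 1320 CPM.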

How the results depend on the processing

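None of the 9 inward rectifier genes was called under any of 17 alternative settings, and the lowest adjusted p of a member was 0.353. Kcnj10 had an unadjusted p under 0.05 in all 17, with a lowest adjusted p of 0.419. Of all genes tested, 2.21% were under 0.05 by DESeq2, 4.36% by limma-voom and 8.22% without replicate 4 of both genotypes. The settings refit the same 8 libraries or a part of them, so they are not independent tests of Kcnj10. Signs turned for Kcnj3, at -0.087 to 0.15 with 1 library left out, and for Kcnj9, at -0.014 to 0.18. The other 7 members kept their sign. Over all genes the count of calls was 1 in the main analysis, 3 with the DESeq2 Wald test, 2 with DESeq2 on the filtered genes, 3 without replicate 4 of both genotypes (the last 2 chosen after seeing the data) and 1 to 2 with 1 library left out, the 2 being without WT replicate 1. Dclk3 had an adjusted p of 0.0647 with no filter on low counts, at a log2 fold change of -2.07, where the 1 gene called was Malat1, and Dclk3 was called in the other 16 settings. The cause was not tested. Transcript length in place of all exons moved the Kir3 shares of Kcnj3 to 31.9% in KO and 32.2% in WT, those of Kcnj6 to 5.66% in KO and 6.83% in WT, and the Kir3 to Kir2 ratio in KO to 0.655. With the replicate number as a block, the calls were again 0 members and 1 gene in all, and Dclk3 was at -2.06 (adjusted p = 0.0295). Same-numbered libraries did not deviate together (correlations -0.28 to 0.053), so the numbers were not taken as pairs. The lowest count of a member in a library was 226, for Kcnj6 in KO replicate 4. Kcnj6 had an SE of 0.18 on the log2 scale, against 0.10 for Kcnj12, which held 283 to 503 counts. The part of depth in the spread of Kcnj6 was not tested. The non-members Kcnj1, Kcnj5, Kcnj8, Kcnj13, Kcnj14 and Kcnj15 had fewer counts than Kcnj6 in at least 7 of 8 libraries.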
